A study of Rattus norvegicus with 6 samples.

Results

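The miR-17-92 cluster and its paralogs miR-106b-25 and miR-106a-363 were followed here through 10 guide arms, out of 719 rat miRNAs on the array. Guide arms are the mature strands that load into the silencing complex. They were picked by name, with no signal in the rule but with earlier results of these data known. From miR-17-92 they are rno-miR-17-5p, rno-miR-18a-5p, rno-miR-19a-3p, rno-miR-20a-5p, rno-miR-19b-3p and rno-miR-92a-3p. From miR-106b-25 they are rno-miR-106b-5p, rno-miR-93-5p and rno-miR-25-3p, and from miR-106a-363 rno-miR-20b-5p. All 10 were on the array, with 20 probes on 200 spots, and 9 of them, among 167 miRNAs in all, were bright enough to test. The cultures, RSkMC, were primary rat skeletal muscle cells of neonatal limb muscle, cryopreserved at their second passage and bought from a culture collection. One group was exposed to IL-8 at 1 ng/ml, a chemoattractant of neutrophils, during 11 days of differentiation (n = 3 arrays), and the other was left untreated for the same time (control, n = 3 arrays). Both groups differentiated in medium with 2% horse serum, and total RNA, with integrity numbers between 9.5 and 10.0, was hybridised to 1-colour miRNA arrays. In the labels the growth protocol is worded as if all 6 samples had received IL-8. The sample titles, the stated agent and the design text contradict this for 3 samples, and grouping here follows the titles. Nothing in the labels tells whether replicate arrays stem from separate cultures, so p-values refer to the spread between these 6 samples alone, and that spread may be technical.

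Each of these clusters is transcribed as one precursor RNA from which Drosha and Dicer cut several miRNAs, and the miR-17-92 locus is a known target of the transcription factors MYC and E2F. Its products are best known for favouring proliferation, through repression of cell cycle inhibitors such as Cdkn1a and of the death factor Bim. In mouse myoblasts and satellite cells members of these clusters are known to favour proliferation over differentiation. A miRNA finds its targets mainly through its seed, bases 2 to 8 counted from the 5′ end, and members that share a seed are read as one functional family.

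The mature sequences are shown because the members fall into 4 seed groups that cut across the 3 clusters, and because near-identical members can cross-hybridise. They are RefSeq entries of the rat assembly GRCr8, which held all 10 members, and capitals mark the seed.
miR-17-5p: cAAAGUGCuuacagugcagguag
miR-20a-5p: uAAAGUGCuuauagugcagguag
miR-20b-5p: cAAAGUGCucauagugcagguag
miR-106b-5p: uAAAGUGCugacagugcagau
miR-93-5p: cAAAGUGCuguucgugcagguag
miR-18a-5p: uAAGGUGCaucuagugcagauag
miR-19a-3p: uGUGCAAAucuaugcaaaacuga
miR-19b-3p: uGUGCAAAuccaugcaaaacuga
miR-92a-3p: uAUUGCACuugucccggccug
miR-25-3p: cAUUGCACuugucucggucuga
The seed AAAGUGC is shared by 5 members, drawn from all 3 clusters. The seed GUGCAAA belongs to miR-19a-3p and miR-19b-3p, which differ by the single substitution U11C, with positions counted from 1 at the 5′ end and the base of the first-named miRNA given first. The seed AUUGCAC joins miR-92a-3p of miR-17-92 to miR-25-3p of miR-106b-25, and miR-18a-5p alone carries AAGGUGC.

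In GRCr8 the miR-17-92 cluster holds 6 hairpins within 785 bases of chromosome 15, plus strand, chr15:98587848-98588632. The miR-106b-25 cluster holds 3 hairpins within 483 bases of chromosome 12, minus strand, chr12:22156641-22157123, inside the span of the protein-coding gene Mcm7, a subunit of the replication helicase. The miR-106a-363 cluster holds 5 hairpins within 871 bases of the X chromosome, minus strand, chrX:137342777-137343647. No annotated gene in that table spans the hairpins of chromosome 15 or X, and whether a position is exonic or intronic was not analysed here. RefSeq lists miR-17-5p, miR-19b-3p and miR-92a-3p under hairpins of both chromosome 15 and X, so their signal cannot be assigned to either cluster. Of the 10 members, miR-20b-5p alone is listed under the X chromosome and no other.

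The comparison of the 2 groups addressed the effect of IL-8 on miRNAs of these cultures, which are labelled as differentiating muscle cells. None of the 9 tested members passed the test, and their log2 changes with IL-8 lay between -0.02 and 0.08. Of the 9, 7 were above 0 and 2 below, with a median of 0.035. Over all 167 tested miRNAs the median was 0.016, with 94 above 0 and 73 below, and the median size of change was 0.083, against 0.035 for the members. By limma with Benjamini-Hochberg adjustment over all 167 miRNAs, 0 of 9 members were called at adjusted p under 0.05, beside 10 of 167 (5.99%) in all, a total that ran from 1 to 27 when single arrays were left out. At unadjusted p under 0.05 the count was also 0 of 9, beside 41 of 167 (24.6%). IL-8 and control values overlapped for each of the 9, whereas 50 of the 167 miRNAs (29.9%) had no overlap. The adjusted p of the members ran from 0.578 to 0.970. The 95% confidence intervals of the fold changes reached between them from 0.883, for miR-19a-3p, to 1.20, for miR-17-5p. Their widths differed, with 0.954 to 1.14 for miR-25-3p, so this range is not a limit common to the members. For each member, changes within its own interval were not resolved. The intervals hold for this scaling and for the spread between these arrays. All 3 IL-8 arrays lay on one slide and all 3 control arrays on another, so slide and treatment cannot be told apart. In bulk RNA, fewer cells of a type and less RNA per cell cannot be told apart either.

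Levels are given as log2 of the signal relative to each array's 75th percentile over the 264 probes that were well above background on all 6 arrays. A change is therefore relative to the other detected miRNAs of the array. Brightness differs between probes, and levels of different miRNAs are not compared with each other.

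Of the members carrying the AAAGUGC seed, rno-miR-17-5p, the founding miRNA of the family and a repressor of E2F1 and Cdkn1a, had log2 levels of -3.62, -3.52 and -3.69 with IL-8, against -3.77, -3.55 and -3.75 in control. The highest IL-8 array stood just above control 2, while control 1 and control 3 lay below all IL-8 arrays. Control 2 alone made the groups overlap. Its log2 change of 0.08 ± 0.08 (SE, n = 3 each) did not pass the test (limma adjusted p = 0.605). Its shorter probe was well above background on 2 of 3 control arrays, and without that probe the log2 change was -0.03. rno-miR-20a-5p, another regulator of E2F factors, stood at -2.70, -2.54 and -2.57 with IL-8 and at -2.72, -2.59 and -2.55 in control. Its 2 sets of arrays covered nearly the same range, and the log2 change was 0.02 ± 0.07 (SE, limma adjusted p = 0.934).

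rno-miR-20b-5p, known from human tumour cells as a repressor of VEGFA, stood at -3.65, -3.57 and -3.57 with IL-8 and at -3.79, -3.63 and -3.61 in control. Control 1 lay below all the other arrays, while IL-8 1 lay below control 2 and control 3. The log2 change was 0.07 ± 0.06 (SE, limma adjusted p = 0.578). rno-miR-106b-5p, a repressor of Cdkn1a, stood at -3.04, -2.96 and -3.00 with IL-8 and at -3.18, -3.01 and -2.91 in control, so that the control arrays spread to both sides of the IL-8 arrays. The log2 change was 0.03 ± 0.07 (SE, limma adjusted p = 0.866). Its neighbour rno-miR-93-5p, which shares that target, stood at -3.07, -3.00 and -3.10 with IL-8 and at -3.15, -2.97 and -3.00 in control, a log2 change of -0.02 ± 0.06 (SE, limma adjusted p = 0.918). It was measured by 1 probe, since its shorter probe was well above background on 2 of 3 IL-8 arrays and on 0 of 3 control arrays.

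The miR-19 pair, miR-19a-3p and miR-19b-3p, carried the seed GUGCAAA. rno-miR-19a-3p stood at -4.42, -4.50 and -4.39 with IL-8 and at -4.68, -4.43 and -4.32 in control, where the lowest and the highest value of all 6 arrays were both found. The log2 change was 0.04 ± 0.09 (SE, limma adjusted p = 0.870), with the widest standard error among the members. Its shorter probe was well above background on 2 of 3 control arrays. On control 1 that probe was set to the lowest level allowed, a log2 level of -5.03. rno-miR-19b-3p stood at -1.58, -1.49 and -1.43 with IL-8 and at -1.61, -1.47 and -1.40 in control, with the control range slightly wider at both ends. Its log2 change was -0.01 ± 0.07 (SE, limma adjusted p = 0.970).

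Of the pair with the seed AUUGCAC, rno-miR-92a-3p, known in endothelial cells as a repressor of integrin alpha 5, stood at -3.95, -4.00 and -3.93 with IL-8 and at -3.91, -4.00 and -4.06 in control. The highest and the lowest array were both control arrays, and the log2 change was 0.03 ± 0.06 (SE, limma adjusted p = 0.845). The shorter probe of miR-92a-3p was well above background on 2 of 3 control arrays, and without that probe the log2 change was -0.07. rno-miR-25-3p, a repressor of the cell cycle inhibitor Cdkn1c, stood at -3.52, -3.63 and -3.64 with IL-8 and at -3.64, -3.70 and -3.65 in control. IL-8 1 stood above the rest and the other values lay within a narrow band, with IL-8 3 just below control 1. The log2 change was 0.06 ± 0.05 (SE, limma adjusted p = 0.578).

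**Figure D1:**
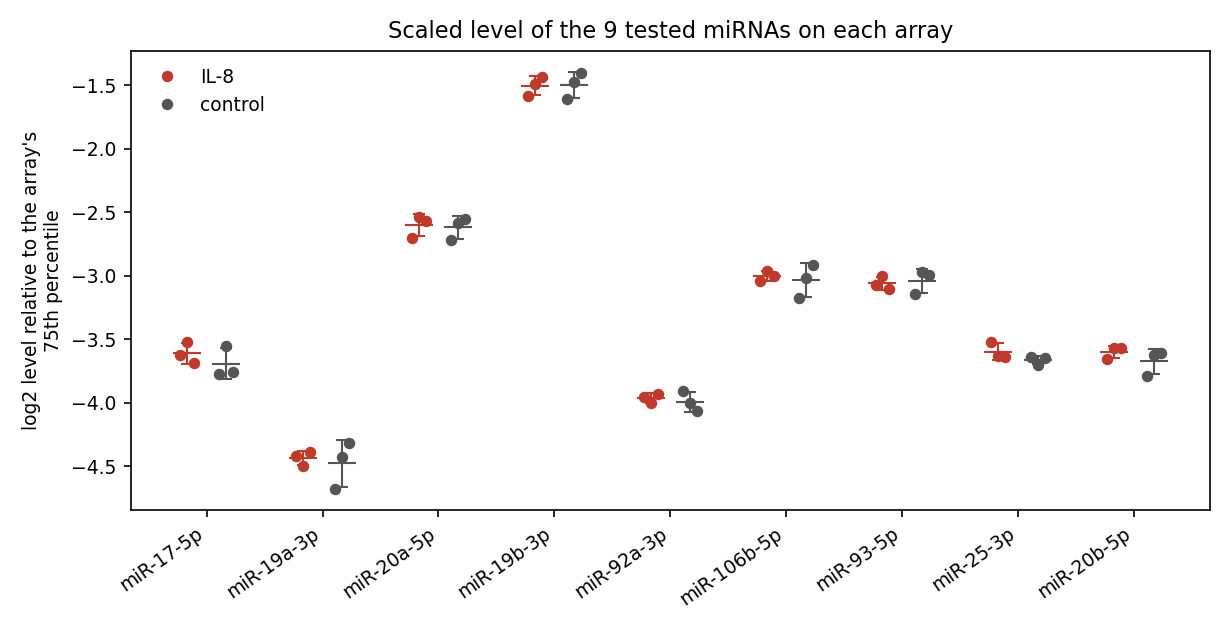
Log2 level of the 9 tested miRNAs relative to the 75th percentile of the array, with IL-8 arrays left of control arrays; points are arrays, horizontal marks the group means and error bars the SD (n = 3 each). IL-8 and control points overlap for each miRNA, and control 1 is the lowest of the 6 arrays for 7 of the 9.

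rno-miR-18a-5p, known from human cells as a repressor of connective tissue growth factor, was the one member without a measurable level. On no array did either of its probes stand well above background. Its longer probe gave signals of 14.5, 14.0 and 13.9 on the IL-8 arrays, against 9.63, 11.3 and 14.0 on the control arrays. The lowest signal called well above background was 14.6, 15.6 and 12.3 on the IL-8 arrays and 17.1, 16.0 and 16.3 on the control arrays, so the longer probe lay close to the limit of detection. The highest signal of its shorter probe was 6.76. No fold is given for it.

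**Figure D2:**
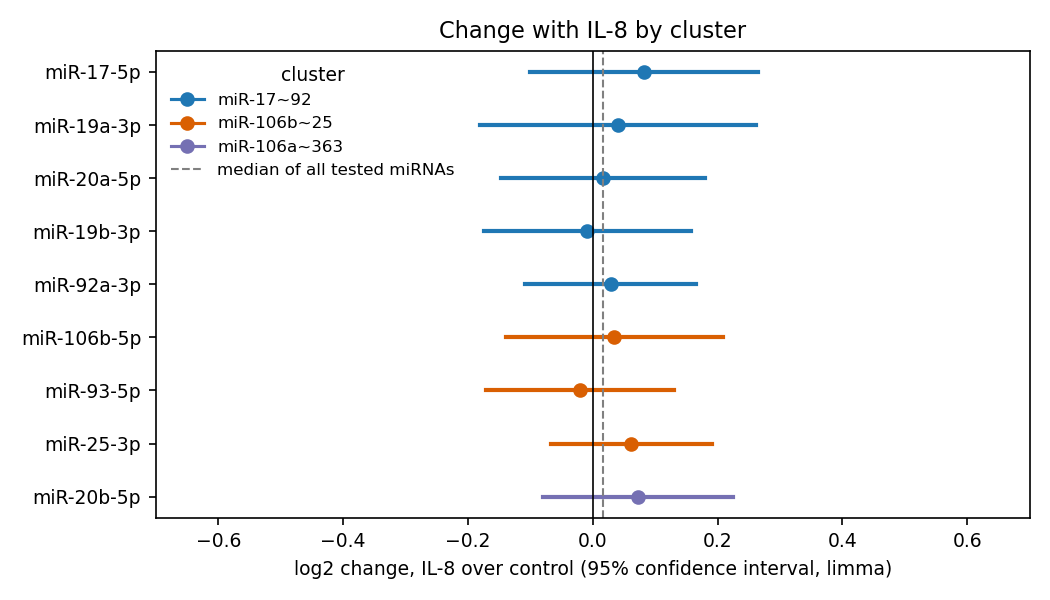
Log2 change with IL-8 over control for each tested miRNA (points) with its 95% confidence interval from limma (lines), coloured by cluster, with the median of all 167 tested miRNAs dashed at 0.016. Every interval crosses 0, and the changes lie between -0.02 and 0.08.

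The clusters were then compared through the mean level of their tested members on each array, as a description with no test. The 5 tested members of miR-17-92 averaged -3.26, -3.21 and -3.20 on the IL-8 arrays, against -3.34, -3.21 and -3.22 on the control arrays, a log2 change of 0.03. Control 1 was low and the other 5 arrays lay close together, and leaving out single arrays moved the change between -0.009 and 0.055. With miR-19b-3p and miR-92a-3p left out, as products of both chromosomes, the change was 0.05 over 3 members. With miR-17-5p left out as well, a choice made after seeing the RefSeq entries and the data, it was 0.03 over 2 members. The 3 members of miR-106b-25 averaged -3.21, -3.20 and -3.25 on the IL-8 arrays, against -3.32, -3.23 and -3.19 on the control arrays, a log2 change of 0.03, and here the control arrays held both the lowest and the highest mean. Leaving out single arrays moved it between -0.012 and 0.055. With the brightest probe of each miRNA the changes of these 2 clusters were -0.015 and -0.013. The miR-106a-363 cluster was represented by miR-20b-5p alone, whose log2 change was 0.07.

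Within single arrays the difference of miR-17-92 minus miR-106b-25 was -0.04, -0.01 and 0.05 with IL-8 and -0.02, 0.02 and -0.03 in control. The 2 groups overlapped, and the mean difference with IL-8 minus that in control was 0.007. That is smaller than the spread between arrays of either group.

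By seed, the 5 members with AAAGUGC had a mean log2 change of 0.04, the miR-19 pair one of 0.02 and the pair of miR-92a-3p and miR-25-3p one of 0.05. The values of the 2 groups overlapped in all 3. Leaving out single arrays moved the first between -0.017 and 0.067 and that of the miR-19 pair between -0.063 and 0.077. The change of the miR-92a and miR-25 pair ran from 0.024 to 0.072. With the brightest probe of each miRNA the 3 changes were -0.006, 0.007 and -0.042, in the same order. Against the AAAGUGC members on the same array, the miR-19 pair shifted by -0.02 and the miR-92a and miR-25 pair by 0.01 with IL-8 relative to control, again with overlap. Seed groups and clusters share members, so these are not separate observations.

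Variation between arrays was set beside that of all tested miRNAs, and no correlation among the members was computed. On control 1, 2 of the 9 members lay above their group mean, beside 24.6% of all tested miRNAs. On control 2 the count was 7 of 9 beside 46.7%, and on control 3 it was 7 of 9 beside 70.1%. Control 1 had the lowest level of the 6 arrays for 7 of the 9 members, against 43.1% of all tested miRNAs. The SD was larger in control than with IL-8 for 8 of the 9, against 71.9% of all tested miRNAs. Over the members the SD ran from 0.037 to 0.086 with IL-8 and from 0.033 to 0.18 in control. Without control 1 the median log2 change of the members was -0.03 with 4 of 9 above 0, where all 6 arrays gave 0.035 with 7 of 9 above 0. The median of all 167 tested miRNAs turned sign as well, at -0.013 without control 1 and 0.016 with all 6 arrays. The count of members above 0 thus depended on that array, and it depended on the probes used as well. It was 5 of 9 with only probes above background on all 6 arrays, and 3 of 9 with the brightest probe. The cause was not tested.

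The 3 other miRNAs whose level across the 6 arrays was nearest to the mean profile of the members, each centred on its own mean, were miR-103-3p, miR-16-5p and miR-34a-5p. Their root mean square distance was 0.024, 0.025 and 0.025 on the log2 scale, against 0.030 for the nearest member, miR-20b-5p, and 0.091 for the farthest, miR-92a-3p. miR-103-3p lies in introns of pantothenate kinase genes, miR-16-5p restrains cell cycle genes and miR-34a-5p is an effector of p53. None of the 3 was called, at log2 changes of 0.00077, 0.010 and 0.019 (limma adjusted p = 0.997, 0.945 and 0.917).

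The members are read by pairs of nested probes, in which the shorter lies within the longer and differs by 1 base in length, with lengths from 15 to 21 bases. In the 8 members with both probes in use, the probes differed in the same direction. In 8 of 8 the shorter probe was the dimmer, and its log2 change was the more positive, although for miR-19a-3p both rounded to 0.04. The median log2 change was 0.10 for the dimmer probes and -0.009 for the brighter probes. In 5 of the 8 the probes differed in sign. The shorter probes of miR-17-5p, miR-19a-3p and miR-92a-3p came into use through the IL-8 group alone, which favours a positive change. Those of the other members here were well above background on all 6 arrays. The filter applied to all miRNAs alike, and its part in the difference was not tested. Among 123 other miRNAs with more than 1 probe in use, the dimmest also had a more positive log2 change than the brightest in 92 (74.8%).

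For miR-17-5p the shorter probe gave signals of 24.3, 24.0 and 19.5 on the IL-8 arrays, against 14.8, 18.9 and 16.6 on the control arrays, and a log2 change after scaling of 0.20. Its longer probe gave 87.7, 95.2 and 89.9 on the IL-8 arrays, against 69.9, 86.6 and 81.5 on the control arrays, a log2 change after scaling of -0.03. Before scaling the groups did not overlap for either probe, and both were brighter on the IL-8 arrays. After scaling the groups overlapped for both, with IL-8 3 below control 2 on the shorter probe. For miR-92a-3p the log2 changes were 0.13 for the shorter and -0.07 for the longer probe, and for miR-25-3p 0.14 and -0.01. The shorter probe of miR-20b-5p had a log2 change of 0.14 and the longer one of 0.01.

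The same arrays differed in faint signal. The median of the 434 negative control spots was 4.58, 4.14 and 6.03 on the IL-8 arrays and 3.65, 3.12 and 4.83 on the control arrays. The median of the 1401 probes never well above background ordered the arrays differently, at -1.12, -3.23 and -4.10 on the IL-8 arrays and -2.81, -4.37 and -3.97 on the control arrays. The part of faint signal in the probe difference was not tested. The shorter probes of miR-17-5p, miR-19a-3p and miR-92a-3p were well above background on 2 of the 3 control arrays and on all 3 IL-8 arrays. With only the brightest probe of each miRNA 3 of 9 members were above 0 and 6 below, at a median of -0.01.

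**Figure D3:**
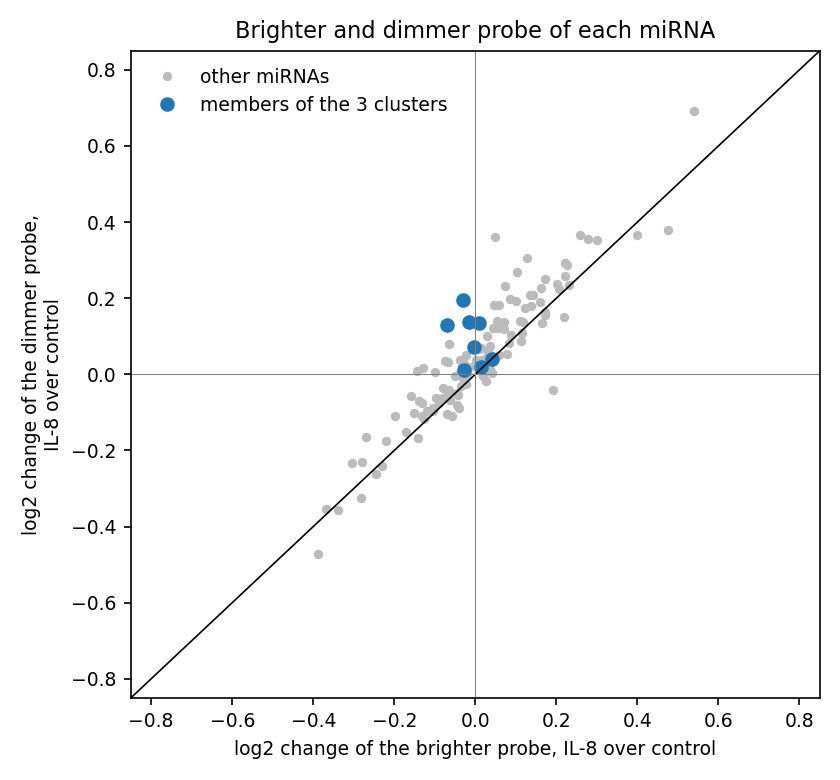
Log2 change with IL-8 over control of the dimmer probe (vertical axis) against the brighter probe (horizontal axis) of the same miRNA, for the 8 members with both probes in use and 123 other miRNAs; the diagonal marks equal change. All 8 members lie above the diagonal, as do 92 of the other miRNAs.

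Cross-hybridisation limits how far the members can be read apart. Over the bases that a probe covers, the probes of miR-17-5p leave 1 base unpaired against miR-20a-5p, and those of miR-19a-3p leave 1 unpaired against miR-19b-3p. The probes of miR-20b-5p likewise leave 1 base unpaired against miR-20a-5p. So do those of miR-19b-3p against miR-19a-3p, and those of miR-20a-5p against miR-17-5p and miR-20b-5p. The probes of miR-92a-3p leave 2 unpaired against miR-25-3p, those of miR-106b-5p 2 against miR-17-5p, and those of miR-93-5p 3 against miR-20a-5p and miR-20b-5p. Over the whole sequence miR-17-5p and miR-20a-5p differ by C1U and C12U, and miR-20a-5p and miR-20b-5p by U1C and U10C.

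The other products of the same precursors were not seen. The 15 other arms and miR-363 arms of these hairpins were all on the array with 42 probes, and 0 of them were well above background on any array, with a highest signal of 5.19. The same held for miR-32-5p and miR-92b-3p, which share the AUUGCAC seed but lie outside the clusters: their 8 probes reached at most 3.18. Among the 15 arms, miR-363-3p of the miR-106a-363 cluster also carries that seed and is not counted as a member. No change with IL-8 could be measured for any of these.

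Before scaling between arrays the IL-8 arrays were brighter in general, with 75th percentile signals of 569, 549 and 540, against 440, 475 and 497 on the control arrays. Without scaling all 9 members were above 0, with a median log2 change of 0.26, and 4 were called higher by limma. These were miR-17-5p, miR-92a-3p, miR-25-3p and miR-20b-5p, at log2 changes of 0.30, 0.26, 0.29 and 0.31 (adjusted p = 0.0464, 0.0443, 0.0423 and 0.0466 by limma). In that setting 51 of 167 miRNAs (30.5%) were called, 50 of them higher, and the median of all tested miRNAs was 0.24. With the 75th percentile over all probes, or with the normexp background correction, all 9 members were below 0, at medians of -0.07 and -0.08, where all tested miRNAs had medians of -0.08 and -0.07. The sign of the members followed that of the whole array in these 3 settings. At most 326 of the 1730 probes were well above background on an array, so the percentile over all probes fell among faint probes.

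**Figure D4:**
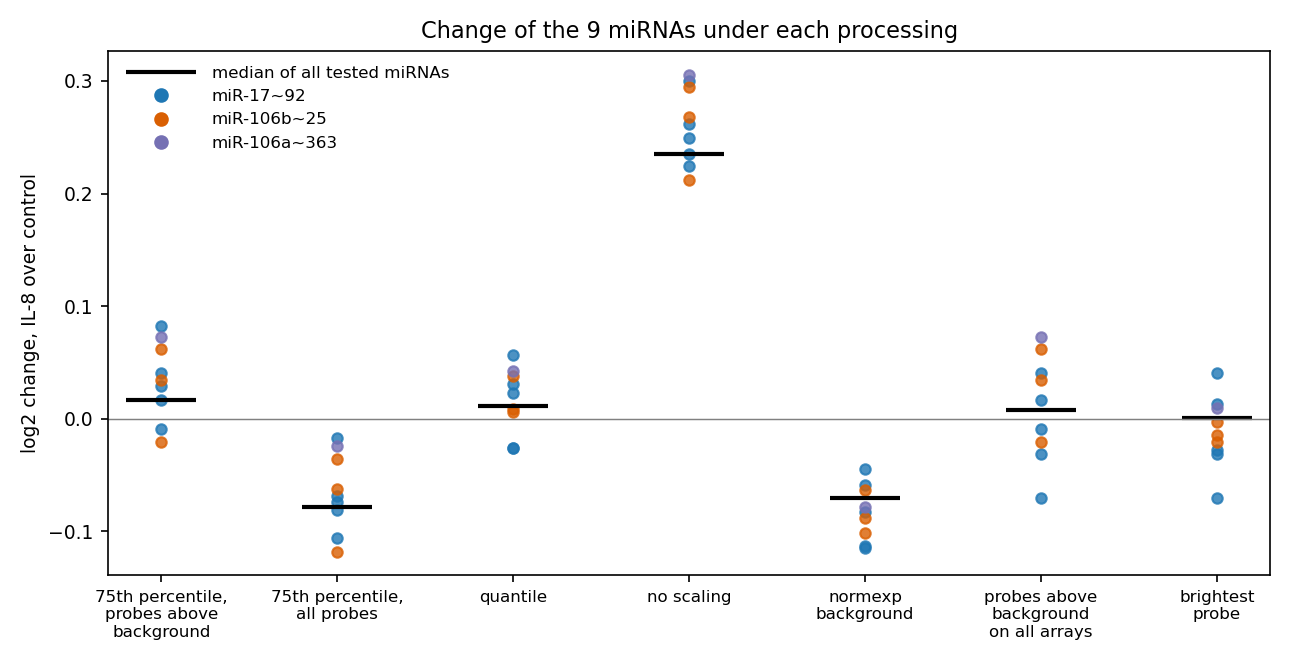
Log2 change with IL-8 over control of the 9 tested miRNAs (points, coloured by cluster) under 7 ways of processing the arrays, with the median of all tested miRNAs as a black bar. The points move with the bar, from below 0 with the normexp background to between 0.21 and 0.31 without scaling.

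The cells were checked against marker miRNAs. None of the 7 striated muscle miRNAs, among them miR-1-3p, miR-133a-3p and miR-206-3p, was well above background on any array, with 15 probes and a highest signal of 9.23, so the labelled cell type was not borne out by its defining miRNAs. The 5 fibroblast and smooth muscle miRNAs, among them miR-143-3p and miR-199a-5p, were all detected. Their summed probe signals ran from 35413 to 35549 on the IL-8 arrays and from 27690 to 35263 on the control arrays before scaling, and 0 of 5 were called, at a median log2 change of -0.02. Of the blood and endothelium markers 0 of 5 and 0 of 1 were detected. Per array 180, 169 and 168 miRNAs were well above background with IL-8, against 154, 156 and 164 in control.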

How the data were processed

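The deposited values are spot fluorescence intensities on a linear scale, which the authors extracted with Agilent Feature Extraction 10.10.1.1, per the file headers and the submitters' processing notes, with background subtraction and spatial detrending and no normalization between arrays. The 15095 spots per array include 14380 spots with 1730 rat probes for 719 miRNAs, none of them saturated. Any error in the background step enters all values here and weighs most on dim probes. The value matrix that the authors also deposited matched the total probe signal of the array files (relative tolerance 1e-04), so it is linear, with no centring or normalization; its column medians were 0.307, -0.802 and -1.18 for the IL-8 arrays and -0.529, -1.35 and -1.17 for the control arrays.

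Spots of a probe were averaged without control spots and outliers. Detection of a probe on an array required that the software called more than 50% of its spots well above background. Testing a miRNA required a probe detected on every one of the 3 arrays of either group, which left out 552 miRNAs, and its level was the mean over such probes. Signals were divided by the array's 75th percentile over 264 probes and floored at a log2 level of -5.03, at which 19 tested miRNAs had at least 1 value. The 2 groups were compared with limma 3.58.1 (functions lmFit and eBayes, without covariates) in R 4.3.3, using version 1.17.8 of the data.table package, with Benjamini-Hochberg adjustment over 167 miRNAs at 0.05. The scripts were tested on simulated data with planted changes far larger than those of the members. That test does not bear on changes as small as theirs. An exact permutation test of 3 against 3 arrays cannot go below a two-sided p of 0.1 and was not used. Of 719 array names 651 were found among the RefSeq miRNAs.

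The miRNAs named are all 10 members, the tested miRNAs of the lists of other arms and seed relatives (there were 0), and the 3 others nearest to the members' mean profile; marker miRNAs and untested list members are named beyond that rule. Members and lists were chosen with earlier results of these data known. The alternatives were other scalings, background, filters, probe summaries, the total probe signal, the replicate number as a block and the omission of each array. A slide block could not be fitted, since each group lies on a slide of its own.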

Additional observations from a re-analysis of the deposited data

How the results depend on the processing

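Of the 15 alternatives, 14 called 0 of the 9 members, and no alternative that turned a member's sign also called it. Without scaling limma called 4 members and 51 miRNAs. The count over all miRNAs, 10 as reported, was 0 when all probes set the 75th percentile, 17 with quantile normalization, 24 with the normexp background and 1 without a filter. It ran from 1 to 27 when single arrays were left out, being 4 without control 2, 27 without control 3, 3 without IL-8 1, 1 without IL-8 2 and 4 without IL-8 3, while the members called stayed at 0.

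When all probes set the 75th percentile, it fell among faint probes, and each member had an SE of 0.21. The log2 changes were then -0.017 for miR-17-5p, -0.074 for miR-19a-3p, -0.081 for miR-20a-5p and -0.068 for miR-92a-3p. They were -0.062 for miR-106b-5p, -0.035 for miR-25-3p and -0.024 for miR-20b-5p, with miR-19b-3p at -0.11 and miR-93-5p at -0.12. The clusters were then at -0.069 for miR-17-92, -0.057 without miR-19b-3p and miR-92a-3p, -0.072 for miR-106b-25 and -0.024 for miR-106a-363, and the seed groups of miR-17, miR-19 and miR-92a at -0.061, -0.090 and -0.052. With the normexp background, which adds an offset of 50 to every spot, the first 7 of these members were at -0.083, -0.12, -0.059, -0.11, -0.063, -0.088 and -0.078, miR-19b-3p at -0.045 and miR-93-5p at -0.10, the clusters at -0.083, -0.086, -0.084 and -0.078, and the 3 seed groups at -0.077, -0.080 and -0.10. Without scaling miR-19b-3p was at 0.22 and miR-93-5p at 0.21, the clusters at 0.25, 0.26, 0.26 and 0.31, and the seed groups of miR-17, miR-19 and miR-92a at 0.27, 0.23 and 0.28. Quantile normalization put miR-92a-3p at -0.026 and miR-93-5p at 0.0086, and no filter put miR-93-5p at 0.0096. Restricting the test to probes above background on all 6 arrays put miR-17-5p at -0.031, miR-92a-3p at -0.070, the miR-92a seed group at -0.0041 and the miR-17-92 cluster at -0.011. With the brightest probe miR-17-5p was at -0.031, miR-92a-3p at -0.070, miR-106b-5p at -0.0026, miR-25-3p at -0.015 and the miR-92a seed group at -0.042. The cause was not tested.

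When single arrays were left out, log2 changes ran from 0.038 to 0.15 for miR-17-5p, -0.061 to 0.12 for miR-19a-3p, -0.034 to 0.065 for miR-20a-5p, -0.065 to 0.036 for miR-19b-3p, -0.0068 to 0.071 for miR-92a-3p, -0.036 to 0.096 for miR-106b-5p, -0.074 to 0.012 for miR-93-5p, 0.023 to 0.083 for miR-25-3p and 0.016 to 0.11 for miR-20b-5p.

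The labels do not state that replicate numbers pair the samples, so the number served only as an alternative block. Same-numbered arrays of the 2 groups had deviations that correlated at 0.288, 0.330 and 0.086 across miRNAs, which does not settle the pairing. With the replicate block limma called 8 of 167 miRNAs and 0 of 9 members, at adjusted p of 0.358 or more. The block made the SE of every member smaller, with 0.048 against 0.078 for miR-17-5p. The number of arrays and the low signal of the dimmer probes limit what could be resolved.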
